A study of Homo sapiens with 6 samples.

Results

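The 10 genes described here are the Notch receptors NOTCH1 to NOTCH4, the ligands JAG1, JAG2, DLL1 and DLL4, and the target genes HES1 and HEY1, taken by symbol from the 34811 genes of an RNA-seq count table. All 10 were in the table and 9 had enough counts to be tested. The libraries came from OVCAR-3 cells, an established human high-grade serous ovarian carcinoma line. OV3/SCR cells carried a scrambled shRNA, and OV3/COX1KD cells carried an shRNA against COX-1 in the same pRS plasmid. Both were stable clones under puromycin selection, so the controls had also been transfected and selected, and all were harvested while growing below confluence in RPMI medium with serum. Each condition was 1 clone sampled at 3 separate passages, and the effect of the clone and that of the knockdown cannot be told apart. The p-values measure the spread between passages of a clone, not between clones.

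Notch receptors are transmembrane proteins that are activated by ligands on a neighboring cell. Binding exposes the receptor to ADAM metalloproteases and then to gamma-secretase, which releases an intracellular domain that enters the nucleus and joins the DNA-binding protein RBPJ and a Mastermind coactivator. Direct targets of this complex include the HES and HEY genes, which encode basic helix-loop-helix repressors, and NRARP, which feeds back on the pathway. NOTCH3 is known to be amplified in a subset of ovarian serous carcinomas.

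RBPJ binds DNA at the core TGGGAA. It was searched on both strands, where the reverse strand reads TTCCCA, in the RefSeq promoters (GRCh38.p14) that span 250 bases before to 50 bases after each start. The promoter table had entries for 6 of the 7 listed target genes, HES1, HES4, HES5, HEY2, HEYL and NRARP, and 5 of these held the letters, NRARP being the exception. HEY1 was not among the matched entries. The share of all 35116 promoter entries that held the core was 24.0%, and 3.80% held it 2 or more times. Of the other members with a promoter entry, which were NOTCH1 to NOTCH4, JAG1, JAG2 and DLL4, none held it. The 4 promoters below belong to the measured targets that held the core, are shown so that their expression can be read beside it, and have each match in capitals. Each runs along its transcript, with the start after base 250.
HES1 promoter, chr3:194135898-194136197, plus strand: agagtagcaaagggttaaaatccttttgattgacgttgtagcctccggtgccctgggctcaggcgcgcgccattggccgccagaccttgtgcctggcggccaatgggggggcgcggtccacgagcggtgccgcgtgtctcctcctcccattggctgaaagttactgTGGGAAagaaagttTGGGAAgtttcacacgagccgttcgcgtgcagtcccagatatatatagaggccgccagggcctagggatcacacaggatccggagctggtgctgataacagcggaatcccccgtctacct
HES4 promoter, chr1:1000048-1000347, minus strand: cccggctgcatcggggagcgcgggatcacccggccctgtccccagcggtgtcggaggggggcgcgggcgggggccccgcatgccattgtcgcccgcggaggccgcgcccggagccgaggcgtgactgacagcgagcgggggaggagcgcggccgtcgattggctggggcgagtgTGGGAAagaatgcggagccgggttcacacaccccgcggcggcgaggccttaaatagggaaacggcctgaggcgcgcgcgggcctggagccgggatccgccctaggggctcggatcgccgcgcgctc
HEY2 promoter, chr6:125749382-125749681, plus strand: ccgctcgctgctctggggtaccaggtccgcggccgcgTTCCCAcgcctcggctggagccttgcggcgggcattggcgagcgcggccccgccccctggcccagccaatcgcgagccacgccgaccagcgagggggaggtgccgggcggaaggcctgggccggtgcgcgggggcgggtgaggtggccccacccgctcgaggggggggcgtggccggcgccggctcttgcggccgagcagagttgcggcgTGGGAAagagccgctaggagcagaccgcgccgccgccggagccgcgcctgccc
HEYL promoter, chr1:39639594-39639893, minus strand: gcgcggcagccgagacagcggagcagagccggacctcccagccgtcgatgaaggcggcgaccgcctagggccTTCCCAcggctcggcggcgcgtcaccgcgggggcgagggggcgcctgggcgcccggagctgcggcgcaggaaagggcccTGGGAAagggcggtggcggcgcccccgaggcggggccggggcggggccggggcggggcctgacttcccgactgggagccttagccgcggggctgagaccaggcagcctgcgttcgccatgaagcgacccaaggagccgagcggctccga
In HES1 the 2 matches began 84 and 70 bases before the start, lay on the same strand and were 8 bases apart. In HES4 the single match began 76 bases before the start. HEY2 held 1 match that began 213 bases before the start on the reverse strand and 1 that began 3 bases before it and ran over it. In HEYL the matches began 178 bases before the start on the reverse strand and 99 bases before it on the forward strand. A match of 6 letters is a description of the sequence and not a measured binding site. Only TGGGAA and its reverse TTCCCA were searched, so sites with other letters would not be marked.

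Between 25291505 and 27391538 reads per library were counted on genes. Levels are given as CPM, the count per 1000000 reads of the TMM-adjusted library, and 3 counts correspond to between 0.113 and 0.120 CPM, a floor that covers counting error only. Pairs of libraries within a condition differed by more than sampling noise (chi-square 1.74 to 5.74 per degree of freedom), and the highest value, 5.74, was that of OV3/COX1KD replicates 2 and 3. PTGS1, which encodes COX-1, had 26.7, 25.3 and 24.8 CPM in OV3/SCR and 18.1, 19.4 and 18.8 CPM in OV3/COX1KD. On the log2 scale PTGS1 changed by -0.45 (SE, the standard error, 0.057, edgeR FDR = 1.3e-06). Knockdown libraries were all below control libraries, and 73.3% of the control mRNA level remained. The study reported a robust loss of COX-1 protein in this clone by Western blot, a measure that these counts do not give. It also reported significantly lower COX-1 mRNA in these cells, by RNA-seq and by quantitative PCR. All 8 Mullerian epithelial markers were well expressed in every library, and their summed level was 4657 to 4687 CPM in OV3/SCR and 6005 to 6182 CPM in OV3/COX1KD. The markers did not move together. PAX8, a transcription factor of this lineage, had 19370 to 20262 counts in OV3/SCR and 11233 to 11791 in OV3/COX1KD libraries. KRT7 was also lower, at 26888 to 27933 counts in OV3/SCR and 23664 to 24913 in OV3/COX1KD. WT1, MUC16, KRT8, KRT18, EPCAM and CDH1 had more counts in every OV3/COX1KD library than in any OV3/SCR library. Endothelial markers, of interest because endothelium uses NOTCH4 and DLL4, summed to 2.92 to 4.05 CPM in OV3/SCR and 3.91 to 4.73 CPM in OV3/COX1KD, over 4 of 5 listed genes, with CDH5 at or under 3 counts in all libraries. Fibroblast markers summed to 10.9 to 11.6 and 6.72 to 7.43 CPM and leukocyte markers to 1.01 to 1.77 and 0.676 to 1.24 CPM. The part of these differences in the results was not tested.

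The conditions were compared with edgeR (quasi-likelihood test, 17309 genes), and a gene was called at an FDR under 0.01. Among the 9 tested Notch genes, NOTCH1 and JAG2 rose, HEY1 fell, and 6 did not pass. These 3 calls amount to 33.3% of the tested members, whereas 47.9% of all tested genes were called, 25.8% as higher and 22.1% as lower. With a log2 fold change beyond 0.5, a limit taken from the study, there were 2 members, NOTCH1 higher and HEY1 lower, or 22.2%. Of all tested genes 19.9% did so, 9.87% as higher and 10.0% as lower. No member reached a fold change of 2.5, which 3.92% of tested genes passed, 1.58% as higher and 2.34% as lower. The median log2 fold change was 0.048 over the 9 members and -0.0087 over all tested genes. In 4 of the 9 the normalized levels of the conditions did not overlap, or 44.4%, compared with 63.2% of all tested genes. In such bulk libraries, fewer cells expressing a gene and less RNA of it per cell cannot be told apart.

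**Figure D1:**
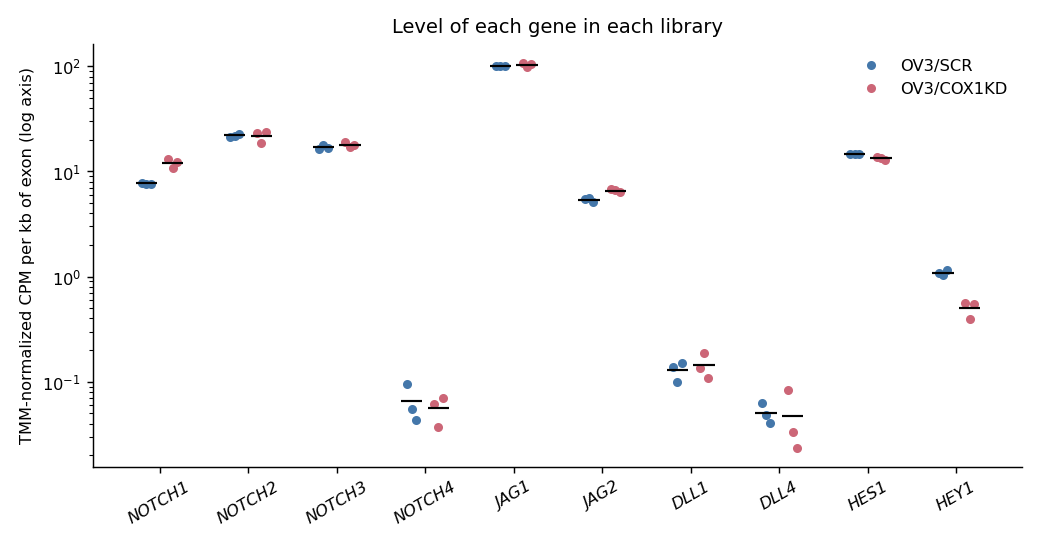
Level of each gene in each library, as TMM-normalized CPM per kb of exon on a log axis, with points for the 3 libraries of each condition and a bar for their mean. JAG1 has means of 100.4 and 103.8, the means of NOTCH4, DLL1 and DLL4 are at most 0.144, and the conditions part visibly for NOTCH1, JAG2 and HEY1.

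The receptors were expressed at very different levels. To compare genes, CPM was divided by the merged exon length, which counts exons of all annotated transcripts and therefore understates genes with long rarely used exons. In OV3/SCR, NOTCH2 had 22.0 ± 0.634 CPM per kb (SD, n = 3), NOTCH3 had 16.9 ± 0.743, NOTCH1 had 7.70 ± 0.0873 and NOTCH4 had 0.0650 ± 0.0276. In OV3/COX1KD the order was unchanged in these means, with NOTCH2 at 21.8 ± 2.77, NOTCH3 at 17.9 ± 1.00, NOTCH1 at 12.1 ± 1.12 and NOTCH4 at 0.0558 ± 0.0169 CPM per kb. The libraries of NOTCH2 and NOTCH3 overlapped in OV3/COX1KD, and the other neighbors in this order were apart by more than their spread in both conditions. Within each library, however, NOTCH2 was above NOTCH3. The level of NOTCH2 over NOTCH3 per kb was 1.30 ± 0.0565 in OV3/SCR and 1.21 ± 0.113 in OV3/COX1KD (SD, n = 3).

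NOTCH1 (ENSG00000148400, chromosome 9 of GRCh37 from 139388885 to 139440500) encodes the founding member of the receptor family. It had 97.7, 96.1 and 95.7 CPM in OV3/SCR and 164, 136 and 155 CPM in OV3/COX1KD. The lowest OV3/COX1KD library, replicate 2, lay well above the highest OV3/SCR library. This gave a log2 fold change of 0.65 (SE 0.048, edgeR FDR = 6.1e-10), a 1.57-fold rise. Leaving out any single library gave values between 0.60 and 0.73. Of 81 tested genes within 2 Mb of NOTCH1, 30 were higher, 18 were lower and 33 were not called, and their median log2 fold change was -0.027. The shares over all tested genes were 25.8% higher and 22.1% lower. NRARP, one of the higher neighbors, is described with the targets.

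NOTCH2 (ENSG00000134250, chromosome 1 from 120454176 to 120643366) was the receptor with the most reads. It had 358, 368 and 379 CPM in OV3/SCR and 389, 311 and 394 CPM in OV3/COX1KD. Replicates 1 and 3 of OV3/COX1KD were above all controls and replicate 2 was below them all. The log2 fold change was -0.013 (95% interval -0.13 to 0.11, edgeR FDR = 0.858). Without OV3/COX1KD replicate 2 it was 0.095 (edgeR FDR = 0.00110), which passes the threshold. NOTCH2NL, a partial copy of NOTCH2 that the rule for named genes did not include, was counted 124 to 140 times in OV3/SCR and 172 to 203 times in OV3/COX1KD libraries, with a log2 fold change of 0.57 (SE 0.10, edgeR FDR = 9.5e-05). How the counting split reads between the copies was not given in the sources used here, so both values are uncertain.

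NOTCH3 (ENSG00000074181, chromosome 19 from 15269849 to 15311806) had 153, 167 and 158 CPM in OV3/SCR and 178, 160 and 168 CPM in OV3/COX1KD. The conditions overlapped, and the log2 fold change of 0.082 (95% interval -0.0015 to 0.17, edgeR FDR = 0.0853) was not called. It passed the threshold without OV3/COX1KD replicate 2, with 0.13 (edgeR FDR = 2.5e-04), and with offsets for GC content and length, with 0.12 (edgeR FDR = 0.00700). NOTCH4 (ENSG00000204301, chromosome 6 from 32162620 to 32191844), a receptor best known from endothelium, had 25, 14 and 11 counts in OV3/SCR and 15, 9 and 18 in OV3/COX1KD. Its log2 fold change of -0.22 had a 95% interval from -0.95 to 0.52 (edgeR FDR = 0.614), which leaves both size and direction of any change uncertain.

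As a share of the summed receptor level per kb, NOTCH1 took 17.1%, 16.2% and 16.2% in OV3/SCR against 23.6%, 23.4% and 23.0% in OV3/COX1KD. The shares of NOTCH1 did not overlap and varied little between passages. NOTCH2 had a share of 47.1% ± 0.887 in OV3/SCR and 41.9% ± 1.89 in OV3/COX1KD (SD, n = 3), and NOTCH3 had 36.2% ± 0.996 and 34.6% ± 1.71. NOTCH4 held 0.140% and 0.106%. In OV3/COX1KD replicate 2, where NOTCH1, NOTCH2 and NOTCH3 were all at their lowest of that condition, the NOTCH1 share of 23.4% lay between those of the other libraries. These shares are descriptions without a test.

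**Figure D2:**
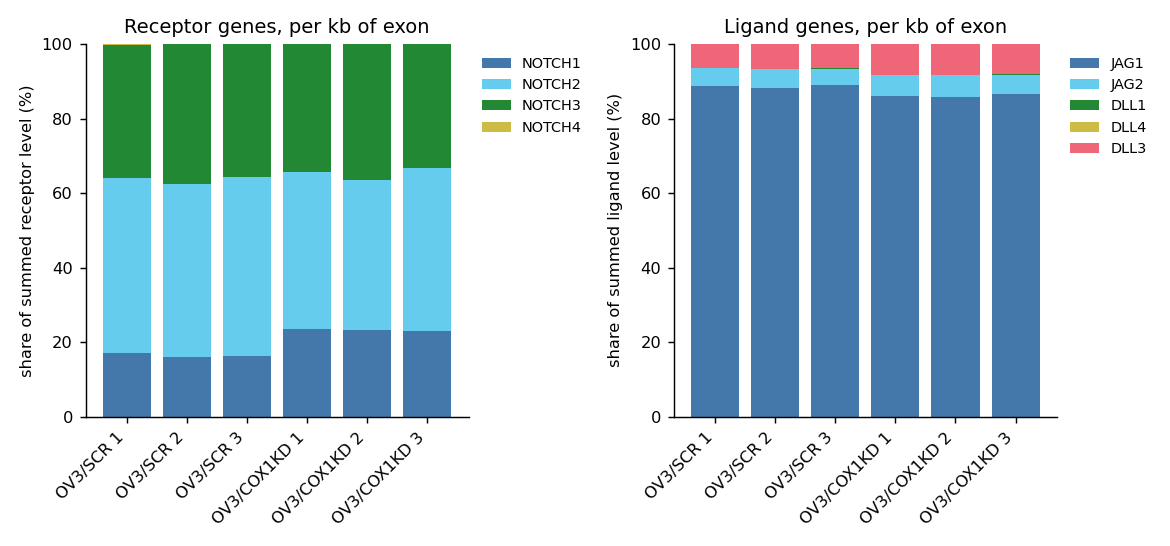
Share of each gene in the summed level of the receptors (left) and ligands with DLL3 (right), in percent of CPM per kb of exon, one stacked bar per library. The NOTCH1 share is 16.2% to 17.1% in OV3/SCR and 23.0% to 23.6% in OV3/COX1KD, and JAG1 takes on average 88.6% and 86.1% of the ligand sum.

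The OV3/COX1KD passages were more spread than the OV3/SCR passages in NOTCH1, NOTCH2, NOTCH3 and JAG1, with replicate 2 lowest in each. On the log2 scale NOTCH1 deviated from the OV3/COX1KD mean by 0.12, -0.15 and 0.033 in replicates 1, 2 and 3, and NOTCH2 by 0.10, -0.22 and 0.12. NOTCH3 deviated by 0.084, -0.077 and -0.0063, so replicate 1 lay at least as far from the mean as replicate 2. JAG1 deviated by 0.046, -0.076 and 0.031, and JAG2 by 0.042, 0.016 and -0.058. Among OV3/SCR libraries the widest deviation of these 5 genes was -0.073, for JAG2. In OV3/COX1KD replicate 2 the median deviation was -0.028 over 3336 genes with 8 kb of exon or more, and 0.022 over 1238 genes under 2 kb, both taken among genes whose mean log2 CPM reached 1. In OV3/COX1KD replicates 1 and 3 the long genes had 0.010 and 0.020. The part of transcript length in the member values was not tested.

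**Figure D3:**
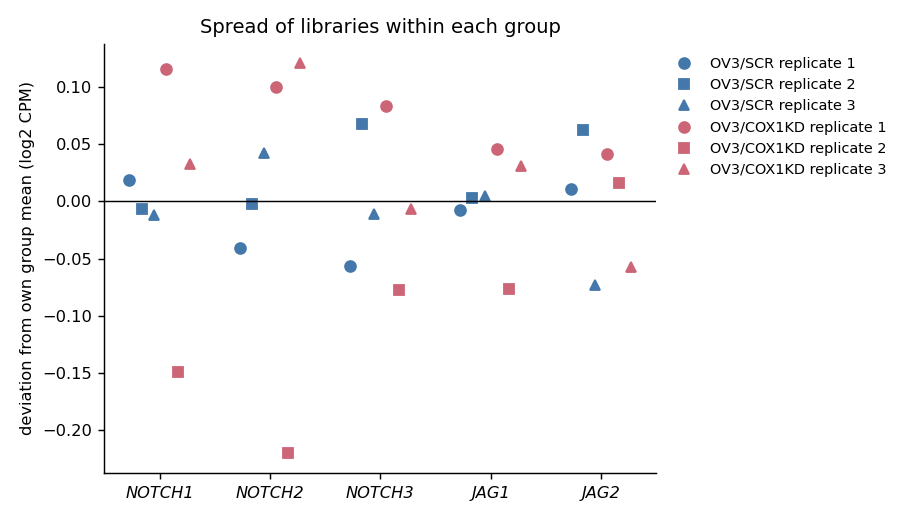
Deviation of each library from the mean of its own condition, in log2 CPM, for the 5 most abundant receptor and ligand genes among the members. OV3/COX1KD replicate 2 (red square) is the lowest library for NOTCH1, NOTCH2, NOTCH3 and JAG1 and lies near 0 for JAG2.

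Of the ligands, JAG1 accounted for most transcripts. JAG1 (ENSG00000101384, chromosome 20 from 10618332 to 10654647) had 100.4 ± 0.452 CPM per kb (SD, n = 3) in OV3/SCR and 104 ± 4.73 in OV3/COX1KD, or 88.6% and 86.1% of the ligand sum. That sum was taken over the member ligands and DLL3, a ligand outside the members. Its CPM was 929, 935 and 937 in OV3/SCR and 995, 915 and 985 in OV3/COX1KD. Replicates 1 and 3 of OV3/COX1KD were above the controls and replicate 2 was below them. The log2 fold change was 0.048 (95% interval -0.018 to 0.11, edgeR FDR = 0.199). Without OV3/COX1KD replicate 2 it was 0.092 (edgeR FDR = 7.6e-04), and with total count scaling it was -0.030, so neither its direction nor its call was stable. Exons of ENSG00000270792 on the opposite strand cover 3.29% of the exon length of JAG1.

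JAG2 (ENSG00000184916, chromosome 14 from 105607319 to 105635161), the second ligand of the Jagged family, had 34.7, 36.0 and 32.7 CPM in OV3/SCR and 43.4, 42.6 and 40.5 CPM in OV3/COX1KD. Knockdown libraries were all above control libraries. The log2 fold change was 0.29 (SE 0.049, edgeR FDR = 4.1e-05), a 1.22-fold rise, and every alternative setting kept the call, with values from 0.21 to 0.32. Of 47 tested genes within 2 Mb, 26 were lower and 5 higher, with a median of -0.19. Over all tested genes, 22.1% were lower and 25.8% higher. Exons of RP11-44N21.4 on the same strand cover 7.33% of the exon length of JAG2, and how reads there were counted is not known. JAG1 exceeded JAG2 per kb by 18.7 ± 0.922 times in OV3/SCR and 15.8 ± 0.986 times in OV3/COX1KD (SD, n = 3).

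The Delta-type ligands among the members were near the limit of detection. DLL1 (ENSG00000198719, chromosome 6 from 170591294 to 170615653) had 14, 10 and 15 counts in OV3/SCR and 13, 18 and 11 in OV3/COX1KD, a log2 fold change of 0.14 with a 95% interval from -0.56 to 0.83 (edgeR FDR = 0.742). Exons of FAM120B on the opposite strand cover 9.69% of the exon length of DLL1. DLL4 (ENSG00000128917, chromosome 15 from 41221538 to 41231271) had 8, 6 and 5 counts in OV3/SCR and 10, 4 and 3 in OV3/COX1KD, did not pass the filter, and without it had an edgeR FDR of 0.923. The DLL1 interval spans both directions, so the size and direction of any difference are uncertain. DLL3, a Delta-type protein known to inhibit Notch signaling in the cell that makes it, was outside the members and better expressed. It had 18.8, 19.8 and 19.0 CPM in OV3/SCR and 27.5, 24.7 and 26.1 CPM in OV3/COX1KD, without overlap. DLL3 had a log2 fold change of 0.44 (SE 0.058, edgeR FDR = 1.9e-06). Its level per kb was above that of JAG2 in both conditions, at 7.33 ± 0.199 and 9.97 ± 0.549 CPM per kb.

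The targets did not move as a block. The promoter of HES1 (ENSG00000114315, chromosome 3 from 193853937 to 193856521) holds the 2 same-strand TGGGAA matches shown above. HES1 had 30.2, 29.9 and 30.3 CPM in OV3/SCR and 28.2, 27.9 and 26.4 CPM in OV3/COX1KD. Every knockdown library was below every control library, by a small margin. The log2 fold change of -0.13 (SE 0.050, 95% interval -0.24 to -0.027, edgeR FDR = 0.0293) did not pass the threshold. It passed with total count scaling, at -0.21 (edgeR FDR = 0.00126), and with GC and length offsets, at -0.17 (edgeR FDR = 0.00532). Of 25 tested genes within 2 Mb of HES1, 8 were higher and 5 lower, beside 25.8% higher and 22.1% lower over all tested genes.

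HEY1 (ENSG00000164683, chromosome 8 from 80674606 to 80680092), a repressor related to HES1, had 159, 147 and 164 counts in OV3/SCR and 77, 54 and 81 in OV3/COX1KD. In CPM these were 5.96, 5.64 and 6.34 against 3.06, 2.15 and 3.04, with a wide gap between the conditions and replicate 2 lowest. On the log2 scale the fold change was -1.12 (SE 0.14, edgeR FDR = 7.1e-07), and 46.0% of the control level remained. Without OV3/COX1KD replicate 2 it was -0.96, and over the other alternatives it went down to -1.19, always past the threshold. The 15 tested genes within 2 Mb had a median log2 fold change of 0.19, with 6 higher, 1 lower and 8 not called. Of all tested genes, 25.8% were higher and 22.1% lower. HEY1 had the largest change of the 9 tested members in the edgeR fit.

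Of the 5 other target genes listed, 4 were tested and all 4 were called, 3 as higher and 1 as lower, in a comparison that called 47.9% of all tested genes, 25.8% as higher and 22.1% as lower. NRARP had 19.0, 19.0 and 19.5 CPM in OV3/SCR and 25.9, 26.6 and 29.0 CPM in OV3/COX1KD, a log2 fold change of 0.50 (SE 0.058, edgeR FDR = 3.4e-07). HEY2, a close relative of HEY1, had 548, 548 and 530 counts in OV3/SCR and 659, 676 and 695 in OV3/COX1KD, a log2 fold change of 0.35 (SE 0.053, edgeR FDR = 1.0e-05). Both rose with no overlap between conditions. HEYL, the third HEY gene, had 3.98, 4.84 and 3.71 CPM in OV3/SCR and 5.68, 5.39 and 6.91 CPM in OV3/COX1KD, a log2 fold change of 0.52 (SE 0.13, edgeR FDR = 0.00169). The call of HEYL was lost without OV3/SCR replicate 1 (0.49, edgeR FDR = 0.0107), OV3/SCR replicate 3 (0.45, edgeR FDR = 0.0151) or OV3/COX1KD replicate 3 (0.41, edgeR FDR = 0.0173). HES4, a HES1 relative, had 41.0, 41.1 and 40.2 CPM in OV3/SCR and 34.9, 35.4 and 32.9 CPM in OV3/COX1KD. It fell by 0.25 on the log2 scale (SE 0.046, edgeR FDR = 1.2e-04). HES5 had at most 2 counts in any library.

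Of the 5 target promoters that hold the core, 2 belong to genes that rose, HEY2 and HEYL, 1 to HES4, which fell, 1 to HES1, which was not called, and 1 to HES5, which had too few counts to be tested. Per kb, HES4 was the most abundant target in OV3/SCR at 36.5 ± 0.434 CPM per kb (SD, n = 3), followed by HES1 at 14.6 ± 0.109, HEY2 at 7.70 ± 0.108, NRARP at 7.26 ± 0.119, HEY1 at 1.09 ± 0.0641 and HEYL at 1.02 ± 0.144. HEY1 and HEYL did not differ beyond their spread there. In OV3/COX1KD, HES4 had 30.8 ± 1.17, HES1 had 13.4 ± 0.471, NRARP had 10.3 ± 0.609, HEY2 had 9.82 ± 0.182, HEYL had 1.47 ± 0.198 and HEY1 had 0.501 ± 0.0942 CPM per kb. NRARP and HEY2 were then within their spread of each other, and HEY1 lay below HEYL. The level of HEY2 over HEY1 per kb was 7.08 ± 0.508 in OV3/SCR and 20.2 ± 4.65 in OV3/COX1KD (SD, n = 3).

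**Figure D4:**
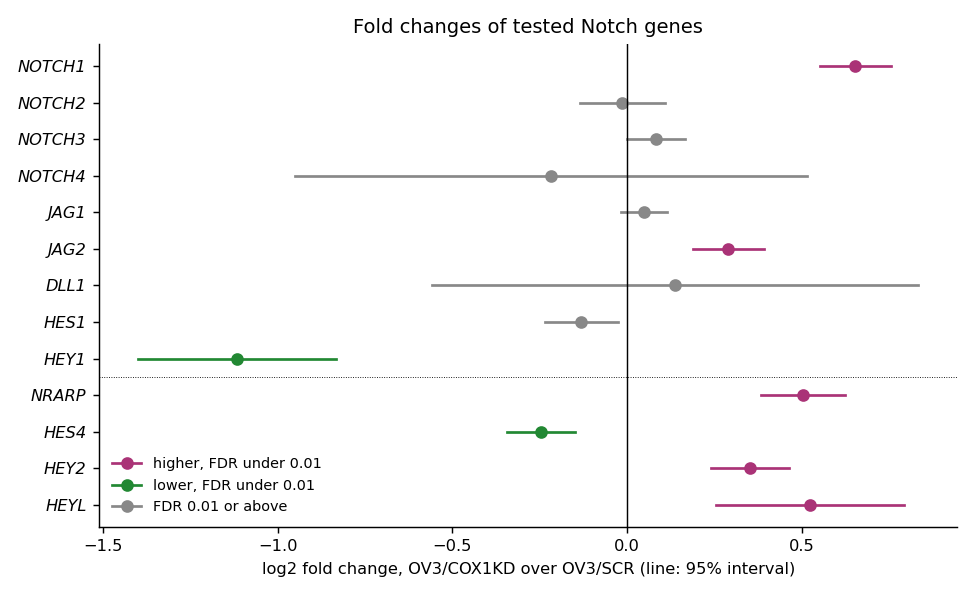
Log2 fold change of OV3/COX1KD over OV3/SCR with its 95% interval for the 9 tested members (above the dotted line) and 4 other target genes (below it), colored by call. NOTCH1 at 0.65 and HEY1 at -1.12 lie farthest from 0 among the members, and NOTCH4 and DLL1 have the widest intervals.

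The rest of the pathway was read from a list of 62 further genes, of which 60 were in the table and 56 were tested. Of these, 18 were higher and 19 lower, or 66.1% called, with a median log2 fold change of 0.014. Of all tested genes 47.9% were called, 25.8% as higher and 22.1% as lower, and the counts by role below stand against these shares. Beyond a log2 fold change of 0.5 there were 8 higher and 4 lower, or 21.4%, close to the 19.9% of all tested genes. With total count scaling this split was 4 higher and 7 lower, against 8 and 4 with TMM. Of the 56 tested listed genes, 3 passed a fold change of 2.5, TLE4, NEURL1B and MFNG, beside 3.92% of all tested genes.

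Among genes for ligand endocytosis, which lets a ligand pull on its receptor, NEURL1B rose. This E3 ubiquitin ligase of the Neuralized family had 6.04, 5.49 and 6.19 CPM in OV3/SCR and 19.1, 16.2 and 17.2 CPM in OV3/COX1KD. NEURL1B thus had a log2 fold change of 1.56 (SE 0.086, edgeR FDR = 7.5e-12), a 2.95-fold rise. Of the other 3 genes of this group MIB2 fell, and MIB1 and NEURL1 were not called.

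Of the 8 genes for receptor glycosylation, 2 rose, 4 fell and 2 did not pass. The Fringe enzymes add N-acetylglucosamine to O-fucose on Notch and alter which ligands it answers to. MFNG, the Manic Fringe gene, had 40, 40 and 37 counts in OV3/SCR and 16, 16 and 11 in OV3/COX1KD, a log2 fold change of -1.40 (SE 0.25, edgeR FDR = 7.4e-05). LFNG, far more abundant, had 20.2, 18.6 and 18.5 CPM in OV3/SCR and 17.2, 16.9 and 16.4 CPM in OV3/COX1KD, and the value of -0.19 on the log2 scale (SE 0.062, edgeR FDR = 0.0147) did not pass, although it did with total count scaling (-0.26) and with GC and length offsets (-0.21). RFNG had a log2 fold change of -0.042 (95% interval -0.16 to 0.072, edgeR FDR = 0.529), and exons of GPS1 on the opposite strand cover 21.6% of its exon length. The xylosyltransferase genes moved in both directions, GXYLT2 with -0.65 (edgeR FDR = 1.2e-07) and XXYLT1 with 0.54 (edgeR FDR = 3.1e-10). GXYLT1, which the rule for named genes did not include, was also lower, with -0.14 (edgeR FDR = 0.00415).

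Of the 9 genes for receptor cleavage, 4 rose, 1 fell and 4 did not pass. FURIN, the convertase that cuts the receptor on its way to the surface, had 58.0, 60.2 and 56.6 CPM in OV3/SCR and 36.4, 36.4 and 36.1 CPM in OV3/COX1KD, a log2 fold change of -0.68 (SE 0.042, edgeR FDR = 4.5e-11). ADAM17 rose by 0.28 (SE 0.037, edgeR FDR = 2.9e-06), and exons of IAH1 on the opposite strand cover 10.3% of its exon length. ADAM10, the main protease for ligand-bound Notch, had 0.058 (95% interval -0.0061 to 0.12, edgeR FDR = 0.112), which passed without OV3/COX1KD replicate 2 (0.094, edgeR FDR = 0.00104). Among genes for subunits of gamma-secretase, APH1A rose with a log2 fold change of 0.56 (SE 0.031, edgeR FDR = 1.0e-11) and NCSTN with 0.36 (SE 0.032, edgeR FDR = 9.5e-09). For both, the OV3/COX1KD libraries lay above the OV3/SCR libraries. APH1B and PSENEN did not pass, and exons of C1orf54 on the opposite strand cover 14.1% of the exon length of APH1A.

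Of the 7 genes of the nuclear complex, 2 rose, 3 fell and 2 did not pass. RBPJ had 96.1, 93.8 and 92.6 CPM in OV3/SCR and 108, 104 and 110 CPM in OV3/COX1KD, a log2 fold change of 0.19 (SE 0.035, edgeR FDR = 8.5e-05). MAML1, the most abundant of the Mastermind genes per kb, had 0.061 (95% interval -0.016 to 0.14, edgeR FDR = 0.162). MAML3 had 5.93, 5.99 and 6.15 CPM in OV3/SCR and 11.7, 9.18 and 10.3 CPM in OV3/COX1KD, a log2 fold change of 0.79 (SE 0.099, edgeR FDR = 1.1e-06).

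The 10 corepressor genes gave 3 higher, 4 lower and 3 without a call. TLE proteins are Groucho-type corepressors that HES factors recruit. TLE4 had 63, 85 and 79 counts in OV3/SCR and 10, 8 and 11 in OV3/COX1KD, a log2 fold change of -2.92 (SE 0.24, edgeR FDR = 3.5e-09). TLE2 had 352, 369 and 369 counts in OV3/SCR and 787, 736 and 648 in OV3/COX1KD, a log2 fold change of 1.03 (SE 0.080, edgeR FDR = 1.2e-09). The changes of TLE4 and TLE2 were thus opposite in sign, and neither pair of conditions overlapped. TLE1, which the rule for named genes did not include, was the most abundant TLE gene, at 20.2 CPM per kb in OV3/SCR. Its log2 fold change was -0.40 (SE 0.039, edgeR FDR = 3.4e-08), and TLE3 was not called. Of the 10 genes for receptor turnover, 1 rose, 5 fell and 4 did not pass, beside 25.8% higher and 22.1% lower over all tested genes. None of the called ones went beyond 0.5, which 19.9% of all tested genes did. In the remaining HES family, HES2 rose, with 8.40, 6.52 and 7.16 CPM in OV3/SCR and 17.6, 18.7 and 16.5 CPM in OV3/COX1KD, a log2 fold change of 1.26 (SE 0.087, edgeR FDR = 2.4e-10). HES6 was not called, and HES7 had too few counts to be tested.

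**Figure D5:**
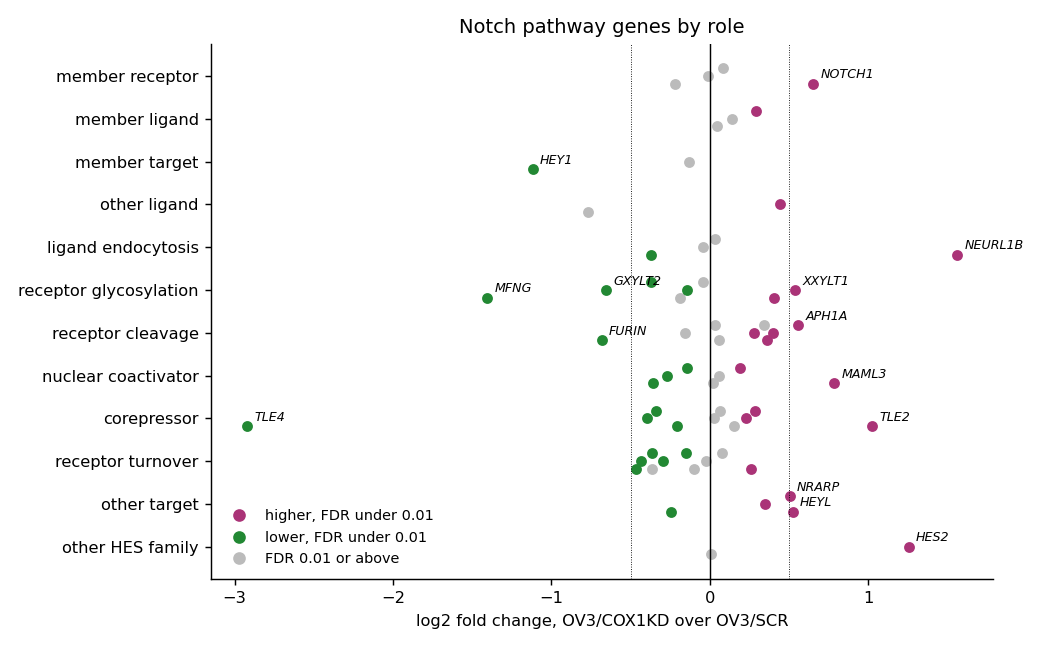
Log2 fold change of every tested Notch pathway gene, one row per role, colored by call, with dotted lines at -0.5 and 0.5 and names for called genes beyond them. Points fall on both sides of 0 in most roles, and TLE4 at -2.92 and NEURL1B at 1.56 lie farthest out.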

How the data were processed

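RNA from 3 passages each of OV3/SCR and OV3/COX1KD was sequenced. Reads were mapped by the authors with TopHat2 (hg19), and the deposited values are raw HTSeq counts per gene without normalization. The annotation and strand setting were not given in the sources used here, so reads of overlapping genes cannot be told apart. Conditions and replicate numbers came from the labels.

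The test used edgeR 4.0.16 under R 4.3.3 (TMM, filterByExpr, glmQLFit, glmQLFTest, Benjamini-Hochberg over 17309 genes). The standard error was the log2 fold change over the root of F. The thresholds were an FDR under 0.01, a log2 fold change beyond 0.5 and a fold change above 2.5. Named genes were PTGS1, the members, listed pathway genes called beyond 0.5, and fixed core genes, among them DLL3, RBPJ, MAML1, ADAM10, ADAM17, NCSTN, LFNG, MFNG, RFNG, NRARP, HES4, HEY2 and HEYL. A further gene of the list is not reported here. Members and lists were chosen with earlier results of these data known. DLK1 and HES3 were not analysed here.

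Coordinates, exon lengths and GC content came from GENCODE 44 lifted to GRCh37, with 33556 of 34811 genes matched. RefSeq promoters were matched for 60 of the 72 listed genes. The alternatives were RLE and total count scaling, DESeq2 1.42.0, no filter, a minimum of 10 counts per library, a replicate block, GC and length offsets fitted with mgcv 1.9.3 without and with the block, and leaving out each library. Scripts were tested on simulated data.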

Additional observations from a re-analysis of the deposited data

How the results depend on the processing

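The calls of NOTCH1, JAG2 and HEY1 kept their direction and side of the threshold under all 14 alternatives. The number of called members was 3, and became 5 with GC and length offsets, and 5 when these were combined with the replicate block, with NOTCH3 and HES1 added in both. Leaving out each library gave 3 to 6, and the 6 came without OV3/COX1KD replicate 2, which added NOTCH2, NOTCH3 and JAG1. The replicate block alone gave 3 of 9 members and changed no call among the named genes, and deviations of same-numbered libraries correlated with r of 0.0045, 0.042 and 0.0090 across genes, so the numbers were not taken as pairs. Signs turned for genes that were not called. With total count scaling JAG1 was -0.030, ADAM10 -0.020 and MAML1 -0.017, and with no filter NOTCH2 was 0.0099. Leaving out each library, NOTCH2 went from -0.071 to 0.095, NOTCH4 from -0.43 to 0.18 and DLL1 from -0.092 to 0.31. The cause was not tested. LFNG also passed with at least 10 counts in every library (-0.20). Total count scaling gave 3466 higher and 4978 lower genes against 4473 and 3820 with TMM, and 2 higher and 2 lower members against 2 and 1. The 25, 14 and 11 counts of NOTCH4, and like counts of DLL1 and DLL4, limit what could be detected.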
